A study of Drosophila melanogaster with 9 samples.

Results

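Cytochrome P450 enzymes are heme-containing monooxygenases. They take electrons from a reductase and insert an oxygen atom into lipids, steroids, pheromones, plant compounds or insecticides. Drosophila genes of the family carry the symbol Cyp with a family number, and they fall into the CYP2, CYP3, CYP4 and mitochondrial clans. Genes of the CYP3 and CYP4 clans are often arranged in tandem and include most of the enzymes known for breaking down foreign compounds, whereas the CYP2 and mitochondrial clans also hold enzymes of ecdysteroid synthesis and breakdown.

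Members were chosen by symbol alone, as the genes of the count sheet whose name starts with Cyp and a digit. This gave 84 of 14865 listed genes. One of them, Cyp1, is described in the authors' annotation as Cyclophilin 1, a prolyl isomerase and not a P450, and it is kept apart from here on, leaving 83 P450 genes. Of these, 78 passed the filter on low counts and were tested, while 5 did not (Cyp303a1, Cyp313a2, Cyp313a3, Cyp6a17 and Cyp6a19, with 0 to 25 counts in a library). Cyp12d1-d and Cyp313a5 are in the annotation but have no row in the count sheet, so they could not be analysed.

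The libraries came from poly(A) RNA of whole Drosophila melanogaster adults, taken 8 days after eclosion, on a diet of 8% yeast and 9% sugar. Of the 9, there were 4 libraries of E78A mutants, whose genotype the authors' sample sheet gives as E7818.37, and 5 libraries of controls, given as w1118. E78A is a nuclear receptor encoded by Eip78C, and the study asked how it bears on fat uptake and lipid levels. The labels do not name the sex of the flies, the part of the gene that the allele alters, or how many flies and crosses a library stands for, so p-values measure only how far these samples spread, and that spread may be technical.

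Library totals ran from 16556267 to 19093675 counts. For 4 libraries the genotype tag goes against the title, and the authors' sample sheet gave all 9 the genotype of the title. Eip78C had 8.86 to 12.4 CPM (counts scaled to library size) in mutants and 8.57 to 15.6 CPM in controls, so whole-gene counts did not mark the libraries labelled mutant. No replicate was a copy of another, since chi-square over its degrees of freedom was at least 16.4 in each pair of them. The 3 yolk protein genes summed to 5.84 to 12.9 CPM in mutants and 10.3 to 16.1 CPM in controls, while 8 genes of the male accessory gland and ejaculatory bulb summed to 6897 CPM or more in mutants and 5877 CPM or more in controls, so female reproductive RNA was scarce and male reproductive RNA plentiful. In RNA of whole flies, fewer cells of a type and less RNA per cell cannot be told apart.

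Cyp4p2 and Cyp4ad1, both of the CYP4 clan, were the P450 genes that fell in E78A mutants in the fit without pairing, where 0 P450 genes rose. The authors' sample sheet pairs 4 mutant with 4 control libraries, and once the same test was blocked on those pairs, 3 P450 genes were higher (Cyp305a1, Cyp6d2 and Cyp9f3) and both of the above were again lower. A gene was called at an adjusted p under 0.05 in edgeR's quasi-likelihood test with Benjamini-Hochberg adjustment over 13274 genes, a rule that called 1.63% of all genes, 0.708% as higher and 0.927% as lower. The 2 called P450 genes are 2.56% of the 78 tested, a share near that background. Without the adjustment, 24 P450 genes had a p under 0.05 (30.8%, against 15.1% of all genes), 19 of them higher in mutants (24.4%, against 7.3%) and 5 lower (6.41%, against 7.8%). DESeq2 called 5 P450 genes higher (6.41%, against 1.76% of all genes) and 3 lower (3.85%, against 1.94%), or 10.3% together against 3.71%.

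Cyp4p2 (FBgn0033395, 2R:9237512-9239831, plus strand, BDGP6) had 5.06, 5.17, 5.64 and 5.84 CPM in the mutant libraries, against 13.4, 13.3, 7.11, 8.33 and 10.7 CPM in the control libraries. The 4 mutants lay within a narrow band below every control, and the controls themselves differed about as much as the genotypes. As mutant over control, the log2 fold change came to -0.96 (SE 0.19, edgeR adjusted p = 0.0263). With the pairs as a block it was -1.05 (edgeR adjusted p = 0.00698), and unpaired DESeq2 gave -0.96 (adjusted p = 0.000169). In the unpaired edgeR fit, the call ended without any 1 mutant library, or without control replicate 1 or 5 (adjusted p up to 0.0855). The libraries held 87 to 98 counts in mutants and 124 to 242 counts in controls. The gene lies opposite hig on the other strand, and hig had a log2 fold change of -0.09 (adjusted p = 0.622). The kit keeps strand, but no source used here says whether the counting did, and without it reads of the partners cannot be told apart.

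Cyp4ad1 (FBgn0033292, 2R:8439395-8442806, minus strand) had 7.62, 6.18, 7.31 and 3.16 CPM in mutants, against 13.4, 14.6, 17.1, 17.0 and 8.35 CPM in controls. Control replicate 5 was close to the mutants and mutant replicate 4 was lowest, yet the groups did not overlap. Its log2 fold change was -1.21 (SE 0.25, edgeR adjusted p = 0.0370), and no gene overlaps it in the annotation. With the pairs as a block the value was -1.15 (edgeR adjusted p = 0.00132), and unpaired DESeq2 gave -1.21 (adjusted p = 7.73e-05). In the unpaired edgeR fit, the call ended without mutant replicate 2, 3 or 4, or control replicate 1, 2, 3 or 4 (adjusted p up to 0.0950). The mutant library was the lower one in all 4 pairs of the sample sheet for both genes. Within 500000 bases on either side, 0 of 134 other tested genes were called around Cyp4p2 and 1 of 143 (0.699%) around Cyp4ad1, that 1 being coil. Whether the stocks differ in sequence at either gene was not tested.

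**Figure D1:**
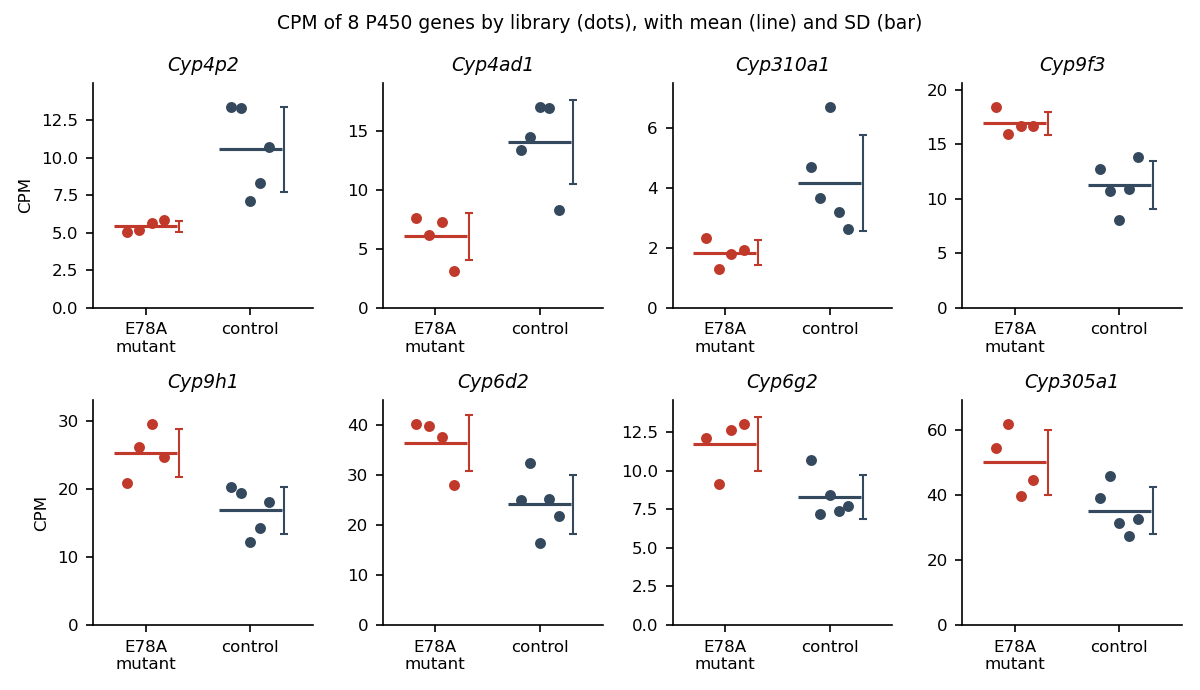
CPM in each library (dots) for 8 P450 genes, E78A mutants (n = 4) left of controls (n = 5), with the mean as a line and the SD as a bar. Mutant libraries of Cyp4p2, Cyp4ad1 and Cyp310a1 lie below all control libraries and those of Cyp9f3 and Cyp9h1 above them, while the groups overlap for Cyp6d2, Cyp6g2 and Cyp305a1.

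The next smallest p-values belonged to Cyp9f3, Cyp310a1, Cyp9h1, Cyp6d2 and Cyp6g2, all of the CYP3 clan. In the unpaired edgeR fit none of these was called, whereas DESeq2, also unpaired, called all 5 (adjusted p = 0.00484 for Cyp9f3, 0.00373 for Cyp310a1, 0.0114 for Cyp9h1, 0.0219 for Cyp6d2 and 0.0483 for Cyp6g2). In edgeR without control replicate 5, Cyp9f3 (0.67, adjusted p = 0.0395) and Cyp310a1 (-1.30, adjusted p = 0.0484) were called, and without control replicate 2 Cyp6d2 was (0.72, adjusted p = 0.0383). Cyp9f3 had 18.4, 15.9, 16.7 and 16.7 CPM in mutants and 12.8, 10.8, 8.08, 10.9 and 13.8 CPM in controls (log2 fold change 0.59, SE 0.14, edgeR adjusted p = 0.0564). Its 4 mutant libraries were above all controls. With the sheet's pairs as a block in edgeR, Cyp9f3 was called higher (0.49, adjusted p = 0.0278). Around it, 6 of 140 other tested genes (4.29%) were called, GstD3 and GstD10 among them, and CG34402 on the opposite strand had -0.45 (adjusted p = 0.18).

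Cyp310a1 had 2.33, 1.31, 1.79 and 1.95 CPM in mutants and 4.70, 3.68, 6.70, 3.20 and 2.63 CPM in controls. All mutants were below all controls, at 22 to 41 counts a library against 46 to 117 counts, and the log2 fold change was -1.18 (SE 0.29, edgeR adjusted p = 0.0692). Cyp9h1 had 20.9, 26.2, 29.5 and 24.7 CPM in mutants and 20.3, 19.4, 12.3, 14.2 and 18.1 CPM in controls (0.59, SE 0.15, adjusted p = 0.0849). Its groups were parted by 1 library each, since mutant replicate 1 and control replicate 1 were nearly equal.

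Cyp6d2, whose loss makes flies sensitive to the plant toxin camptothecin, had 40.2, 39.9, 37.7 and 28.1 CPM in mutants and 25.0, 32.5, 16.4, 25.2 and 21.8 CPM in controls. Mutant replicate 4 and control replicate 2 overlapped, and the log2 fold change was 0.59 (SE 0.17, edgeR adjusted p = 0.12). With the pairs as a block it was called higher (0.48, adjusted p = 0.0140), as was Cyp305a1 of the CYP2 clan. Cyp305a1 had 54.5, 61.8, 39.6 and 44.6 CPM in mutants and 39.0, 45.9, 31.4, 27.4 and 32.6 CPM in controls, where the groups overlap. Without the block its log2 fold change was 0.51 (SE 0.16, edgeR adjusted p = 0.154), and with it 0.47 (adjusted p = 0.00336). Each mutant library of Cyp305a1 exceeded its own partner, by log2 ratios of 0.48, 0.43, 0.53 and 0.45. Within 500000 bases on either side, edgeR without pairing called 4 of 128 other tested genes around Cyp305a1 (3.12%, all higher). Around Cyp6d2 it called 0 of 151, and over all genes 1.63%. In all, the blocked fit called 3 P450 genes higher (3.95%, against 1.81% of 13177 genes) and 2 lower (2.63%, against 1.98%) of 76 tested, or 6.58% together against 3.79%.

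Cyp6g2, which gives resistance to nitenpyram when overexpressed, had 12.1, 9.16, 12.7 and 13.0 CPM in mutants and 10.7, 7.20, 8.42, 7.41 and 7.72 CPM in controls. The groups overlap through control replicate 1 and mutant replicate 2, and the log2 fold change was 0.50 (SE 0.15, edgeR adjusted p = 0.126). Cyp6g2 overlaps Cyp6g1 on the other strand. The genotypes were fully separate for 7 P450 genes (8.97%, against 6.16% of all tested genes). All mutants were below all controls for Cyp4p2, Cyp4ad1, Cyp310a1 and Cyp313b1 (5.13%, against 3.37%) and above them for Cyp9f3, Cyp9h1 and Cyp4p3 (3.85%, against 2.79%).

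The authors' deposited table called 11 P450 genes at an adjusted p under 0.05, of 82 with a value (13.4%, against 3.47% of 14562 genes). In the authors' deposited table Cyp4ad1, Cyp4p2 and Cyp310a1 were lower (3.66%, against 1.83%), and Cyp9f3, Cyp9h1, Cyp6a13, Cyp6d2, Cyp305a1, Cyp6g2, Cyp313a4 and Cyp6a23 higher (9.76%, against 1.64%). The authors' deposited table gave Cyp4ad1 an adjusted p of 2.28e-05, and at the other end Cyp6a23 one of 0.0495.

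Fold changes of the family were wider than those of genes at large, with a median absolute log2 value of 0.20 against 0.12. The spread between replicates was wider too (median SD of log2 CPM 0.262 against 0.178). Of the 78 tested genes, 39 (50%) lay within a log2 value of 0.2 of no change, against 69.1% of all tested genes. At 0.5 or above there were 12, and at -0.5 or below 6, without a share over all genes at hand. The log2 fold change was positive for 51 of 78 P450 genes (65.4%), against 49.5% of all tested genes, and the median was 0.09 against -0.0024. No test was made of these shares, because the genes share libraries and vary together.

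**Figure D2:**
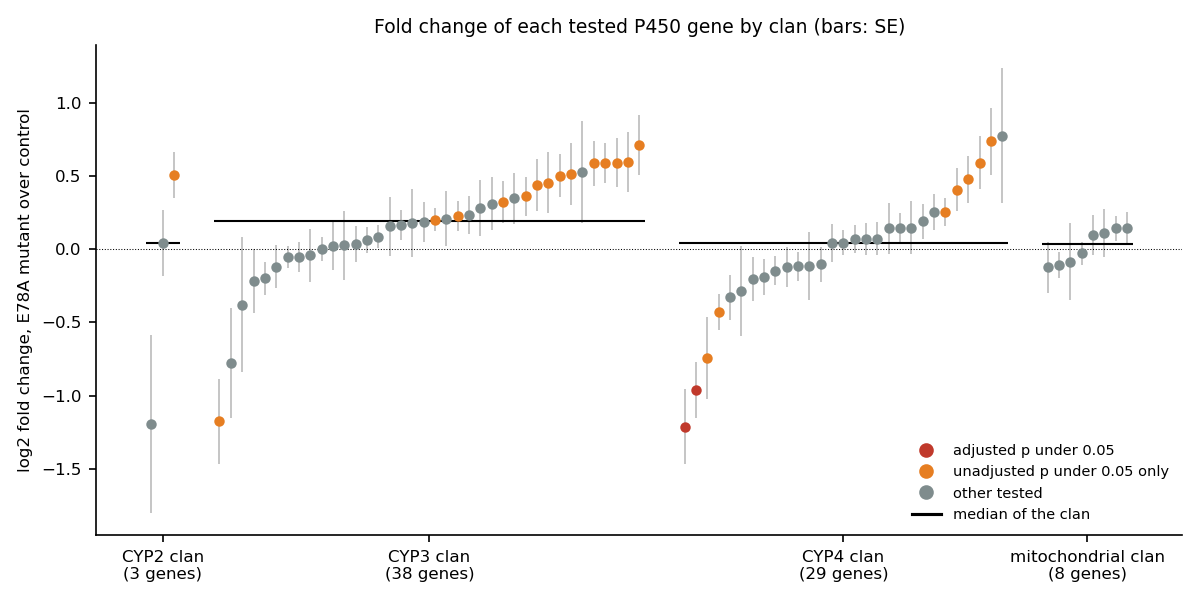
Log2 fold change of the 78 tested P450 genes (dots, E78A mutant over control, bars SE), sorted within each clan, with the clan's median as a line. Both genes called by edgeR without pairing are in the CYP4 clan, and the CYP3 clan has 29 of 38 genes above 0.

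By clan, the CYP3 genes had 29 of 38 positive log2 fold changes with a median of 0.19. At an unadjusted p under 0.05, 13 of the 38 were higher and 1 lower, with 0 called by edgeR without pairing. Over all tested genes 49.5% were positive, and 7.3% were higher and 7.8% lower at that unadjusted p. DESeq2 called Cyp6a13, Cyp6d2, Cyp6g2, Cyp9f3 and Cyp9h1 higher and Cyp310a1 lower, and the blocked edgeR fit Cyp6d2 and Cyp9f3 higher. Over all genes DESeq2 called 1.76% higher and 1.94% lower, and the blocked fit 1.81% higher. In the CYP4 clan 16 of 29 were positive with a median of 0.05, and 5 were higher and 4 lower at an unadjusted p under 0.05. The 8 mitochondrial clan genes ranged from -0.12 to 0.15, with 0 at an unadjusted p under 0.05 and 0 called by edgeR or DESeq2. All 6 genes of the Cyp9 family were positive (0.04 to 0.59, median 0.37), as were all 4 of the Cyp28 family (0.03 to 0.32). In the Cyp6 family 16 of 23 were positive, with a median of 0.18.

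In CPM summed over the 40 CYP3 genes, the mutant libraries ran from 2607 to 3010 and the control libraries from 1966 to 3005. The ranges overlap because control replicate 1 was high. Summed CPM of the 8 mitochondrial genes ran from 355 to 457 in mutants and from 334 to 460 in controls.

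Further CYP3 genes were not called in the unpaired edgeR fit. Cyp6a13, which was chosen with its values in view, had 52.6, 84.7, 124 and 81.5 CPM in mutants and 45.2, 70.3, 44.0, 48.2 and 53.6 CPM in controls (log2 fold change 0.71, SE 0.21, edgeR adjusted p = 0.128, DESeq2 adjusted p = 0.0161). The groups overlap, with mutant replicate 3 highest, and without mutant replicate 1 edgeR called it (0.89, adjusted p = 0.0267). Cyp6a23 had 229, 135, 272 and 185 CPM in mutants and 183, 139, 97.2, 110 and 149 CPM in controls (0.60, adjusted p = 0.194). Its neighbour Cyp6a17, which is linked to temperature preference, was near the floor, with 6 to 21 counts a library in mutants and 3 to 15 in controls. No source used here says how reads that fit several P450 genes were treated.

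Cyp6w1 averaged 156 ± 40.6 CPM in mutants (SD, n = 4) and 114.9 ± 22.9 CPM in controls (SD, n = 5), a log2 fold change of 0.44 (edgeR adjusted p = 0.274). Cyp9b2 averaged 286 ± 88.3 CPM in mutants and 201 ± 51.8 CPM in controls (0.51, adjusted p = 0.276), where mutant replicate 3 was at 413 CPM and the next highest library at 275 CPM. Cyp6g1, whose overexpression gives DDT resistance, averaged 517 ± 81.6 CPM in mutants and 464 ± 152 CPM in controls (0.16, adjusted p = 0.763). Control replicate 1, at 697 CPM, was above all mutants. Cyp28d1, linked to nicotine resistance, averaged 190 ± 26.4 CPM in mutants and 165 ± 49.7 CPM in controls (0.21, adjusted p = 0.64).

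Cyp6a20, whose level affects aggression between males, was steady at 137 to 159 CPM in mutants and 135 to 165 CPM in controls (log2 fold change -0.05, SE 0.08, edgeR adjusted p = 0.789). Cyp6a2, which can break down DDT, had 14.7 to 20.8 CPM in mutants and 15.1 to 30.8 CPM in controls (-0.22, adjusted p = 0.678). Cyp6a8, a gene that caffeine and barbiturates induce, was low at 6 to 10 counts a library in mutants and 4 to 20 counts in controls (-0.38, SE 0.46, adjusted p = 0.744).

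Of the CYP4 clan, Cyp4g1 carries most of the family's RNA. It encodes the enzyme of oenocytes that makes cuticular hydrocarbons from fatty aldehydes. It had 26070, 27607, 23971 and 31364 CPM in mutants and 32369, 26791, 30864, 25971 and 31682 CPM in controls (log2 fold change -0.12, SE 0.10, edgeR adjusted p = 0.626). The groups overlap over most of their range. Cyp4g1 made up 2.46% to 3.12% of all counts in mutants and 2.66% to 3.18% in controls, and 81.9% to 86.4% of all P450 counts in mutants against 85.1% to 88.9% in controls. Its paralogue Cyp4g15, expressed in the nervous system, had 58.2 to 64.9 CPM in mutants and 46.5 to 65.7 CPM in controls (0.07, adjusted p = 0.787).

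Without Cyp4g1, the summed P450 genes were at 4779 to 5308 CPM in mutants and 3861 to 5242 CPM in controls. The control libraries were the more spread, and the ranges overlap. The summed oenocyte markers FarO, eloF, FASN2 and FASN3 averaged 2087 ± 162 CPM in mutants and 2048 ± 217 CPM in controls, and desatF was not matched. Of these 4, 0 were called by edgeR or DESeq2. At an unadjusted p under 0.05 there was 1, against 15.1% of all tested genes.

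Cyp312a1 had 237, 428, 416 and 405 CPM in mutants and 262, 332, 155, 196 and 169 CPM in controls (log2 fold change 0.74, SE 0.23, edgeR adjusted p = 0.147). Mutant replicates 2 to 4 were above all controls, and mutant replicate 1 was among the controls. Cyp313a1 averaged 440 ± 77.8 CPM in mutants and 479 ± 75.7 CPM in controls (-0.12, adjusted p = 0.719). Cyp4e2 averaged 175 ± 6.35 CPM in mutants and 170 ± 17.8 CPM in controls (0.05, adjusted p = 0.837), among the steadiest of the higher-expressed genes. Cyp4e3 averaged 32.6 ± 6.34 CPM in mutants and 41.0 ± 7.49 CPM in controls (-0.33, adjusted p = 0.351).

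Cyp4d21, a gene expressed more in males and tied to courtship, had 56.8, 62.4, 114 and 104 CPM in mutants and 79.5, 63.8, 77.5, 115.3 and 120 CPM in controls. Mutant replicates 3 and 4 and control replicates 4 and 5, which are pairs of the sample sheet, were the 4 highest libraries, so the values followed the pair more than the genotype (log2 fold change -0.11, SE 0.23, edgeR adjusted p = 0.861).

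Cyp18a1, the ecdysteroid 26-hydroxylase that inactivates ecdysone, had 26.8, 13.6, 22.9 and 17.6 CPM in mutants and 29.7, 14.5, 15.5, 19.2 and 19.4 CPM in controls. Pairs were alike here too, with replicate 1 highest in both genotypes and replicate 2 lowest, and the log2 fold change was 0.04 (SE 0.23, edgeR adjusted p = 0.949). Of the 6 Halloween P450 genes of ecdysteroid synthesis, which carry other symbols, sad, shd and phm were tested, with 0 called by edgeR or DESeq2 and 0 at an unadjusted p under 0.05. Their log2 fold changes ran from -0.17 to -0.01, and shd, which makes 20-hydroxyecdysone in peripheral tissue, averaged 4.68 ± 1.05 CPM in mutants and 5.02 ± 1.93 CPM in controls. The other 3, dib, spo and spok, averaged at most 0.217 CPM in either genotype. Cyp303a1, needed for bristle development, had 24 counts over the 4 mutants and 34 counts over the 5 controls. Cyp301a1, which acts in cuticle formation, averaged 6.63 ± 0.917 CPM in mutants and 6.19 ± 0.721 CPM in controls (0.10, adjusted p = 0.783).

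In the mitochondrial clan, Cyp12a4, whose overexpression gives lufenuron resistance, had 265, 247, 176 and 166 CPM in mutants and 254, 207, 158, 175 and 194 CPM in controls. The groups overlap (log2 fold change 0.11, SE 0.16, edgeR adjusted p = 0.79). Cyp12d1-p averaged 3.01 ± 1.05 CPM in mutants and 3.20 ± 0.881 CPM in controls (-0.08, adjusted p = 0.912). It has a near-identical copy, Cyp12d1-d, which is not in the count sheet, so its counts are uncertain.

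Levels of different genes were compared as CPM per kilobase of exon, with exon lengths from Ensembl for 82 genes (Cyp6a21 had none). In control libraries the family spanned Cyp4g1 at 12960 ± 1291 CPM per kilobase down to Cyp313a2 at 0.0581. Next to Cyp4g1 came Cyp313a1 (271 ± 47.9 CPM per kilobase in mutants, 295 ± 46.7 in controls) and Cyp6g1 (249 ± 39.4 in mutants, 224 ± 73.3 in controls), whose order is within their spread. Cyp6d5 (147 ± 6.19 in mutants, 169 ± 28.7 in controls) and Cyp9b2 (172 ± 53.0 in mutants, 120 ± 31.1 in controls) changed places between the genotypes, again within their spread. There were 10 genes in mutants and 8 in controls at 100 CPM per kilobase or more, 37 and 40 between 10 and 100, 25 and 24 between 1 and 10, and 10 and 10 under 1.

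**Figure D3:**
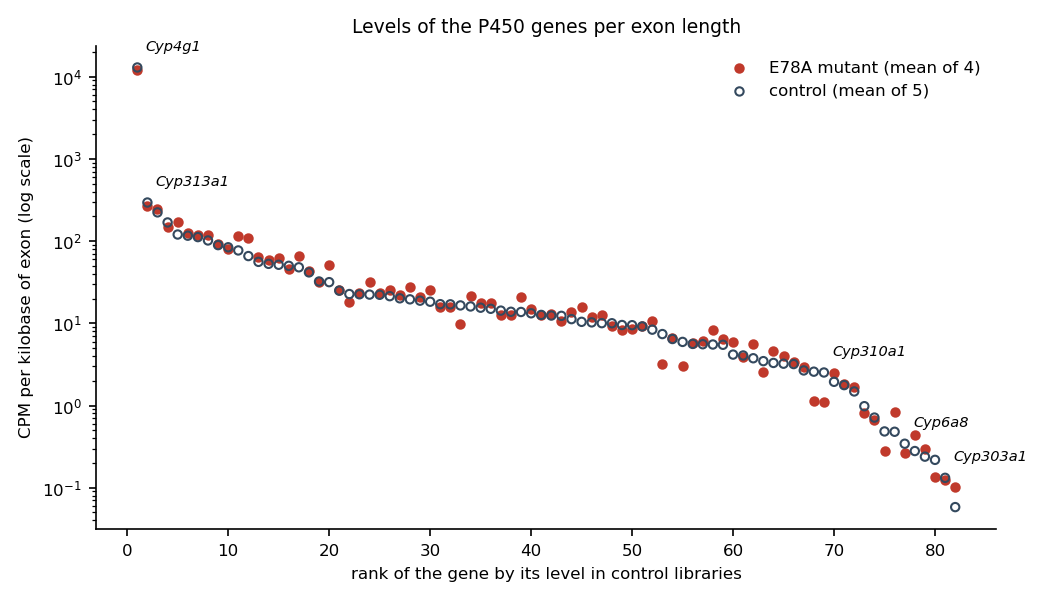
Mean CPM per kilobase of exon (log scale) of 82 P450 genes in E78A mutants (filled) and controls (open), ordered by the control level. Cyp4g1 lies more than an order of magnitude above all others in both genotypes, and the order below it is largely shared.

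The lowest of the tested genes per length in the controls were Cyp4c3, Cyp12d1-p, the pseudogene Cyp6t2Psi, Cyp316a1 and Cyp6a8. Cyp4c3 had 0.806 ± 0.322 CPM per kilobase in mutants and 0.982 ± 0.211 in controls, and Cyp6t2Psi 0.279 ± 0.0898 in mutants and 0.484 ± 0.165 in controls. Cyp316a1 had a log2 fold change of 0.78 (SE 0.46, edgeR adjusted p = 0.468), from 12 to 37 counts a library in mutants and 6 to 24 in controls. Without mutant replicate 4, at 2.25 CPM against 0.683 to 1.01 CPM in the other mutants, it was 0.29, and without control replicate 3 it was 1.163.

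On the chromosomes, 34 of the 83 genes lie on 2R, 15 on 3R, 14 each on 2L and X, and 6 on 3L. Genes under 20000 bases from the next were taken as a cluster, which gave 17 clusters with 47 of the genes, the largest with 9. The tested genes in clusters had 33 of 43 positive log2 fold changes and those standing alone 18 of 35, a difference that was not tested. Over all tested genes 49.5% were positive. In most clusters with several tested genes all were positive, as for Cyp6g1, Cyp6g2 and Cyp6t3 (3 of 3). In others neighbours differed in direction. In the Cyp4p cluster, Cyp4p1 (29.7 ± 4.44 CPM in mutants, 26.02 ± 3.38 CPM in controls, log2 fold change 0.19) and Cyp4p3 (42.7 ± 5.38 CPM in mutants, 35.7 ± 2.86 CPM in controls, 0.26) were positive beside Cyp4p2 at -0.96. Cyp4e2 and Cyp4e1, next to Cyp4ad1, had 0.05 and 0.04. On X, Cyp4d14 had -0.74 (edgeR adjusted p = 0.234) between Cyp4d1 at 0.48 and Cyp4d2 at 0.07, and the control mean of Cyp4d14 rested on control replicates 3 and 5, at 49.5 and 33.2 CPM, with no other library above 21.8 CPM. The differences between neighbours were not tested.

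**Figure D4:**
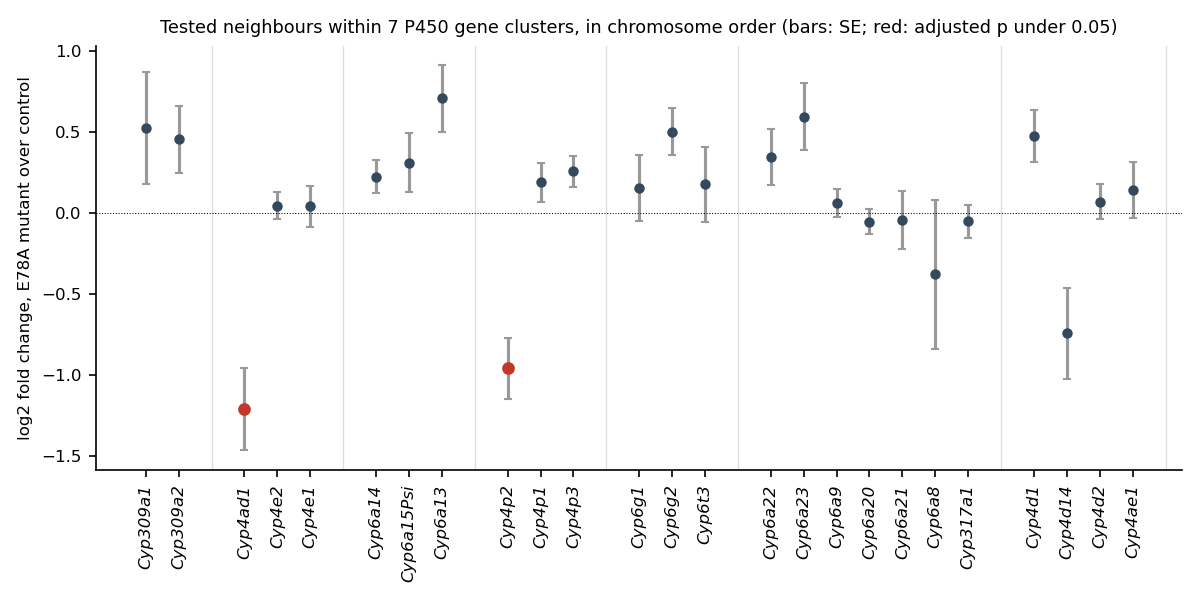
Log2 fold change (E78A mutant over control, bars SE) of the tested genes in 7 of the P450 clusters, in chromosome order. Cyp4ad1 and Cyp4p2 (red) stand below 0 while their neighbours lie between 0.04 and 0.26. Most of the clusters not drawn have all tested genes above 0.

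P450 genes varied more between replicates than genes at large. The median SD of log2 CPM within a genotype was 0.262 for the 78 tested P450 genes and 0.178 for all tested genes. It was highest for Cyp304a1 (1.03), where control replicate 2 was at 12.2 CPM and no other library above 3.66 CPM, followed by Cyp309a1 and Cyp316a1 (0.69 each). Cyp309a1 had 51.4 to 80.4 CPM in mutants and 18.7 to 72.5 CPM in controls. The steadiest were Cyp6v1 (0.0959), Cyp12b2 (0.0992) and Cyp9f2 (0.101). Control replicate 1 was the highest control for 31 of the 78 genes and control replicate 3 the lowest for 31, while over all tested genes these shares were 15.8% and 26%.

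The pairs of the sample sheet differed in direction. In pair 1 the mutant library was the higher one for 26 of 78 genes (median log2 ratio -0.10), in pair 2 for 48 (0.07), in pair 3 for 57 (0.19) and in pair 4 for 42 (0.04). The mutant was higher in all 4 pairs for 14 genes (17.9%, against 12.6% of all tested genes) and lower in all 4 for 6 (7.69%, against 13%). Without mutant replicate 3, which belongs to pair 3, 15 P450 genes had an unadjusted p under 0.05 in place of 24.

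**Figure D5:**
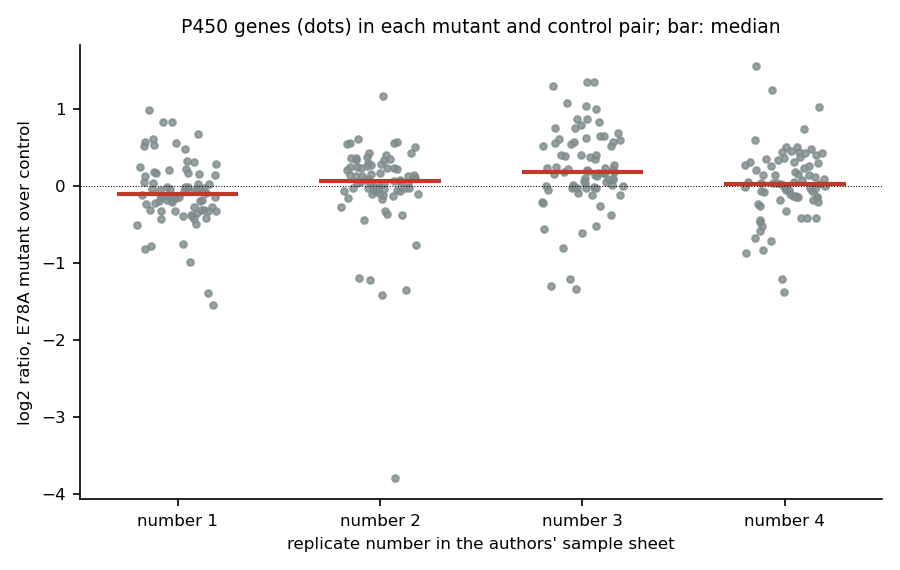
Log2 ratio of the E78A mutant to its control library for each of the 78 tested P450 genes (dots) in the 4 pairs of the authors' sample sheet, with the median as a bar. The median is below 0 in pair 1 and highest in pair 3.

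Genes that serve the P450 system were looked at beside the family. For scale, 15.1% of all tested genes had an unadjusted p under 0.05 in edgeR. Of 6 redox partners, 0 were called by edgeR, with or without the block, or by DESeq2, and 1 had an unadjusted p under 0.05. Cpr, the reductase that hands electrons to P450s of the endoplasmic reticulum, had 1770, 2584, 3170 and 2928 CPM in mutants and 1853, 2233, 1890, 1922 and 2044 CPM in controls (log2 fold change 0.39, SE 0.14, edgeR adjusted p = 0.208). Mutant replicates 2 to 4 were above all controls, and mutant replicate 1 below them. Cyt-b5 had 0.16 (adjusted p = 0.437), and dare, the reductase of the mitochondrial chain, -0.16 (adjusted p = 0.473).

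Of 10 genes of heme synthesis and breakdown, 8 were positive (49.5% of all tested genes were) and 0 called by edgeR. At an unadjusted p under 0.05, 3 were higher and 0 lower, against 7.3% and 7.8% of all tested genes. DESeq2 and the authors' deposited table each called Alas and Pbgs higher, in the authors' deposited table with adjusted p of 0.0328 for Alas and 0.0294 for Pbgs. Over all genes these called 1.76% and 1.64% higher. The blocked edgeR fit called 0 of the 10 (adjusted p = 0.0532 for Alas and 0.0545 for Pbgs). Alas, the first enzyme of the pathway, had 398, 390, 449 and 449 CPM in mutants and 375, 328, 301, 362 and 339 CPM in controls (log2 fold change 0.31, SE 0.08, edgeR adjusted p = 0.105), without overlap. Pbgs, the next enzyme, had 0.33 (adjusted p = 0.0896), and the gene of porphobilinogen deaminase, which follows it, 0.26 (adjusted p = 0.146). The 10 genes summed to 927 to 964 CPM in mutants (mean 947 ± 19.9) and 791 to 864 CPM in controls (mean 821 ± 31.1). Of these means, Alas made up 421 CPM in mutants and 341 CPM in controls.

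Of 12 regulators of detoxification genes, 0 were called by edgeR without pairing. At an unadjusted p under 0.05, 1 was higher and 1 lower, against 7.3% and 7.8% of all tested genes. DESeq2 and the authors' deposited table each called Keap1 lower (adjusted p = 0.00735 in the authors' deposited table). Over all genes these called 1.94% and 1.83% lower. Keap1, the inhibitor of the transcription factor CncC, had 23.0, 16.4, 18.9 and 19.8 CPM in mutants and 30.9, 24.3, 26.2, 29.5 and 24.0 CPM in controls, without overlap (log2 fold change -0.47, SE 0.11, edgeR adjusted p = 0.0672). With the pairs as a block it was called lower (-0.48, adjusted p = 0.0160). CncC itself comes from cnc, which had 0.06 (adjusted p = 0.731), and the xenobiotic receptor gene Hr96 had 0.20 (adjusted p = 0.297). Of 5 genes for epoxide hydrolases and juvenile hormone esterases 0 were called by edgeR without pairing or by DESeq2, and 0 had an unadjusted p under 0.05, and with the block Jheh3 was higher (0.24, adjusted p = 0.0298).

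Tissues rich in P450 RNA were gauged by markers. The 6 Malpighian tubule markers summed to 231 to 289 CPM in mutants (mean 257 ± 26.7) and 245 to 279 CPM in controls (mean 263 ± 14.2). In edgeR without pairing 0 were called. At an unadjusted p under 0.05, 1 was higher and 3 were lower, against 7.3% and 7.8% of all tested genes. The authors' deposited table (adjusted p = 0.00475 for Irk3 and 0.0256 for CapaR), DESeq2 and the blocked edgeR fit each called the same 2 lower. With the block these were the channel gene Irk3 (-0.31, edgeR adjusted p = 0.0291) and the hormone receptor gene CapaR (-0.73, adjusted p = 0.0160). Over all genes, the authors' deposited table called 1.83% lower, DESeq2 1.94% and the blocked fit 1.98%. The 9 midgut markers summed to 6060 ± 1040 CPM in mutants and 5833 ± 492 CPM in controls, and the 5 matched fat body markers to 4620 ± 961 CPM in mutants and 5241 ± 978 CPM in controls, with 0 called in either list by edgeR without pairing or by DESeq2. With the block, Amy-p of the midgut list was higher (0.28, adjusted p = 0.0463) and apolpp of the fat body list lower (-0.28, adjusted p = 0.0309). Most of the fat body sum was apolpp, at 4272.8 CPM in mutants and 4955.5 CPM in controls. Without the block, 3 of the 4 tested fat body markers were positive and 1, apolpp, negative (median log2 fold change 0.23). Of 8 eye markers, all positive with a median of 0.04, edgeR without pairing called Rh6 alone higher (2.69, adjusted p = 5.62e-05). Of 7 testis markers it called Mst84Db alone higher (0.49, adjusted p = 0.0275), while 5 were negative (median of the list -0.10). Over all tested genes 0.708% were called higher. The part of the tissue markers in the P450 values was not tested.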

How the data were processed

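RNA of 9 libraries was measured as poly(A) sequencing. Per the submitters' processing notes, the tools were STAR 2.6.1b, cutadapt 1.16, DESeq2 1.20.0 and 1.22.2, and featureCounts 1.6.3. The notes list BDGP6 and dm6 as builds and assign no tool a step. For strand and for multimapping reads, the settings were not given in any source used here. The authors deposited raw counts per gene. The log2 fold changes and p-values of the authors' deposited table serve as a comparison. Other sheets of normalised values were left out.

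Libraries were grouped by title, and the sample sheet gave 4 tagged otherwise the same genotype as their titles. The quasi-likelihood test of edgeR 4.0.16 (R 4.3.3) was two-sided, with genotype as its only term, TMM scaling and the filterByExpr filter (minimum count 10). The script was tested on simulated data. CPM use TMM-scaled library sizes, and log2 CPM a prior count of 2. The SE is the log2 fold change over the square root of F. Library totals of 16556267 to 19093675 counts make 1 CPM about 17 to 19 counts, and counting error is only part of the spread. Deviations of libraries with the same sheet number correlated at 0.207, 0.214, 0.210 and 0.277 over all tested genes, at most 0.0402 otherwise, so they were taken as pairs (over the P450 genes 0.193, -0.0434, 0.129 and 0.342). Control replicate 3 has no partner and is left out of the blocked fit.

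Members were set by symbol alone, while the genes to name and the lists were chosen with earlier results of these data known. Of 117 list entries, 114 matched by symbol or synonym (not Ahr, apoLTP or desatF). Named genes were the called members, the 5 uncalled with the smallest p, the 5 highest and 5 lowest tested per length, and a list of 25 studied P450 genes. Others are named by count, cluster or spread, after their values were seen. No promoter or protein sequence was at hand, so none is shown. The fit was repeated with the block, without each library, on the 5 libraries whose labels agree, with upper-quartile or RLE scaling, with other low-count filters (none, or 1 CPM in 4 libraries), and in DESeq2 1.42.0.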

Additional observations from a re-analysis of the deposited data

Results flagged for a closer look

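Of 68 groups of libraries of the named genes, 3 held a library that stood far from the others by Dixon's test, which chance gives in about 1 of 20 groups. Cyp312a1 was at 237 CPM in mutant replicate 1 and at 405 to 428 CPM in the other mutants. Cyp301a1 was at 8.01 CPM in mutant replicate 3 and at 6.09 to 6.26 CPM in the other mutants. Cyp303a1 was at 0.626 CPM in mutant replicate 1, from 11 counts, and at 0.230 to 0.297 CPM in the other mutants.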

How the results depend on the processing

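Cyp4p2 and Cyp4ad1 kept their negative log2 fold changes under all 16 alternatives and were called in 9 and 8 of them. Leaving out 1 library gave -1.07 to -0.859 for Cyp4p2 (adjusted p up to 0.0855) and -1.35 to -1.0015 for Cyp4ad1 (up to 0.0950). The call of Cyp4p2 ended without any mutant replicate or without control replicate 1 or 5, and that of Cyp4ad1 without mutant replicate 2, 3 or 4 or control replicate 1, 2, 3 or 4. The count of lower P450 genes thus ran from 0 to 2 and that of higher ones from 0 to 2, and over all genes from 74 to 152 lower and from 53 to 139 higher. DESeq2 called 5 P450 genes higher (234 of all genes) and 258 of all genes lower, and the replicate block 3 (239) and 261. The 5 libraries whose labels agree gave 0 lower P450 genes, 13 higher and 8 lower genes in all, and values of -1.14 for Cyp4p2 and -1.12 for Cyp4ad1 (adjusted p 0.386 and 0.106), with fewer samples. Signs turned for genes near 0. Cyp12d1-p was at 0.17 with those 5 libraries, and with the replicate block Cyp4g15 was at -0.00513 and Cyp18a1 at -0.0318. Leaving out 1 library gave -0.357 to 0.0334 for Cyp12d1-p, -0.00581 to 0.113 for Cyp4g15, -0.00987 to 0.217 for Cyp12a4, -0.124 to 0.240 for Cyp18a1, -0.291 to 0.0373 for Cyp4d21, -0.00299 to 0.0828 for Cyp4e2 and -0.00464 to 0.138 for Cyp301a1. The cause was not tested. The 10 highest genes by level per length in controls shared 9 with the 10 highest by CPM. Low counts limit Cyp6a8, Cyp6a17, Cyp303a1 and Cyp6t2Psi (up to about 20 a library) and Cyp316a1 (6 to 37 a library).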
